A study of Homo sapiens with 20 samples.

Results

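The 10 genes described here belong to the Notch pathway: the receptors NOTCH1, NOTCH2 and NOTCH3, the ligand JAG1, the basic helix-loop-helix (bHLH) repressors HES1, HES4, HES6, HEY1 and HEYL, and the feedback inhibitor NRARP. They were taken by gene symbol from a table of 57992 genes, of which 44294 had a value above 0, and all 10 were found and tested in every comparison. The samples were 20 xenograft tumors of human rhabdomyosarcoma cell lines, RD (embryonal type) and SJRH30 (alveolar type, with the PAX3-FOXO1 fusion), grown in NOD/SCID mice, which lack functional T and B cells but keep their own vessels, stroma and macrophages. Each line had been grafted either as TLE3 knockout cells or as cells carrying a non-targeting control, which gave 4 groups of 5 libraries: RD control, RD knockout, SJRH30 control and SJRH30 knockout. Tumors were excised when the control tumors had grown to the permitted size, and were frozen. The age of the mice, the guides and whether a knockout line was 1 clone were not given in the sources used here, and no label ties a tumor to its own mouse, so p-values measure the spread between these libraries.

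Notch receptors are cut by ADAM proteases and gamma-secretase after a ligand on a neighbouring cell binds them. The freed intracellular part enters the nucleus, joins the DNA-binding protein RBPJ and a Mastermind (MAML) coactivator, and turns on target genes, among them HES and HEY repressors. HES proteins end in a short peptide through which they recruit TLE corepressors, the family to which TLE3, the labelled knockout target, belongs. In myoblasts, Notch signalling holds back the differentiation that MYOD1 drives.

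The promoter of HES1 is shown because it is the textbook RBPJ target and because HES1, with HEY1, differed most between the lines. It is given 5′ to 3′ (RefSeq, GRCh38.p14, plus strand, chr3:194135898-194136144, upstream of the gene), with both copies of the RBPJ core TGGGAA in capitals.
HES1 promoter: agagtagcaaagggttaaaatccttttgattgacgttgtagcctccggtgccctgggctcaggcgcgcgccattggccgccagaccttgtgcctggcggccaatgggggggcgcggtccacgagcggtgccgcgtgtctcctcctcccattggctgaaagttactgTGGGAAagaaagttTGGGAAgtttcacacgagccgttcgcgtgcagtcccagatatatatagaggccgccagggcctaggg
The copies began 84 and 70 bases before the start, and the same window held 3 matches to the N box CACNAG and 4 to the class C site CACGNG, motifs that HES proteins bind, with 2 of the matches shared by both motifs.

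The promoter of NOTCH3 is shown because it was the 1 member whose knockout effect differed between the lines in the deep libraries described below (RefSeq, GRCh38.p14, minus strand, chr19:15200996-15201245).
NOTCH3 promoter: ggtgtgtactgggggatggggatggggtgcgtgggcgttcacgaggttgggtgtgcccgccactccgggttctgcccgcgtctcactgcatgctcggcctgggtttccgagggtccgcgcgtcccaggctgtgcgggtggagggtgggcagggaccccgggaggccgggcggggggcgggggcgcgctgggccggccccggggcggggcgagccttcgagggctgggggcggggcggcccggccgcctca
It held no TGGGAA on either strand and 1 place that matched both CACNAG and CACGNG.
The remaining RBPJ core matches among the members lay near HES4 and HEYL, and are shown as windows of 30 bases on the minus strand, with the core or its reverse complement in capitals. They lay before the RefSeq start. In GENCODE 29, however, both HEYL windows lay inside the HEYL gene (chr1:39624153-39639945), and the HES4 window reached into HES4 (chr1:998962-1000172).
HES4 site, chr1:1000156-1000185: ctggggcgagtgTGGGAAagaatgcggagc
HEYL site 1, chr1:39639804-39639833: ccgcctagggccTTCCCAcggctcggcggc
HEYL site 2, chr1:39639725-39639754: aggaaagggcccTGGGAAagggcggtggcg
Of the 10 members, 9 had a promoter in the RefSeq table, and 3 of these held the core within 250 bases before the start. Among all 35116 promoters of that table, 20.8% held it at least once and 2.90% held 2 or more copies, while 32.0% held CACNAG and 26.7% held CACGNG, counting both strands. A match of these letters describes the window and shows no binding.

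Of the 20 libraries, 18 had normalized counts summing to between 26.1 M and 60.7 M, with 37072 to 42412 genes above 0. The other 2, RD knockout 5 (sum 47.6 M, 32105 genes above 0) and SJRH30 control 3 (sum 23.3 M, 29206 genes), were shallow. Their reads, estimated from the spacing of their low values, were 9.65 M and 2.14 M. No such estimate was made for the 18, so reads cannot be compared with them. Knockout effects and line differences of the members are therefore given with all libraries and with the 18 deep ones, and single genes outside the members mostly with all libraries. In RD knockout 5 a single read was worth 4.93 normalized counts, and in SJRH30 control 3 it was worth 10.9, so low values there are coarse. The TLE3 transcript did not separate the labelled groups. Its normalized counts were 1345, 1810, 2622, 1270 and 1809 in RD controls against 1465, 1357, 1032, 1547 and 424 in RD knockouts (log2 -0.69 ± 0.34 SE, limma adjusted p = 0.605). They were 426, 638, 185, 597 and 407 in SJRH30 controls against 967, 806, 582, 637 and 809 in SJRH30 knockouts, where the labelled knockouts lay higher (log2 0.85 ± 0.37 SE, limma adjusted p = 0.557). Guides that disrupt a reading frame can leave the transcript in place, so "knockout" below means the libraries labelled so. Muscle genes that mark rhabdomyosarcoma were present in every library, the sum of 11 of them ranging from 9085 to 89114.

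Vessels and mural cells of the host also use Notch, and the table holds reads counted on human genes with no removal of mouse reads given in the sources used here. The sum of 12 endothelial markers ranged over 2308 to 4287 normalized counts in RD controls, 2484 to 3188 in RD knockouts, 1036 to 2473 in SJRH30 controls and 1289 to 3226 in SJRH30 knockouts. For 11 pericyte and smooth muscle markers the ranges were 4170 to 6908, 3642 to 8352, 1776 to 6793 and 2144 to 7273 in the same order. For 11 macrophage markers they were 4961 to 11133, 2917 to 4666, 1612 to 8746 and 3267 to 9529, so that this sum was lower in every RD knockout than in every RD control. No marker of any of the 3 lists was at 0 in all libraries of a group. Single markers could separate groups where the sum did not. In the deep libraries RGS5 ranged over 1091 to 1515 in RD controls and 2031 to 4655 in RD knockouts, and PDGFRB over 468 to 636 and 727 to 985. MCAM ranged over 421 to 1065 in SJRH30 controls and 89 to 356 in SJRH30 knockouts, and the endothelial marker PECAM1 over 122 to 178 and 475 to 640. The macrophage markers CD68, CD14, C1QA and C1QB were each lower in every deep RD knockout than in every RD control, and no other marker separated knockouts from controls in the deep libraries of a line. The share of all genes that separated the groups in this way was not counted, so these markers cannot be set against it. The part of host cells in the values below was not tested, and in bulk tumors fewer cells of a type and less RNA per cell cannot be told apart.

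Levels between genes were compared as normalized counts per kilobase of exonic length, and the order of the members differed between the lines. In RD controls HES6 was highest, with a median of 2149 per kilobase (range 1296 to 3247), followed by HES1 with 1459.7 (846 to 2533), whose ranges overlapped. HEYL (593), HES4 (551), NOTCH3 (394), HEY1 (334), NOTCH1 (272) and NOTCH2 (148) followed, each overlapping its neighbour. HEYL, with a highest value of 774, did not reach up to HES1, while HES4, with a highest value of 1153, did. NRARP (36.7) and JAG1 (32.9) were lowest and overlapped each other. In the 4 deep SJRH30 controls HES6 stood alone at the top with 6069.96 per kilobase (3684 to 11170). HES4 (556), NOTCH1 (435), HEYL (374), NOTCH3 (226), HES1 (173) and NOTCH2 (139) followed with overlapping neighbours, and NRARP (35.9), HEY1 (34.8) and JAG1 (25.7) formed the lowest group, below every NOTCH2 value. HES1 thus went from the second place in RD to the sixth in SJRH30, and HEY1 from the sixth to the ninth.

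**Figure D1:**
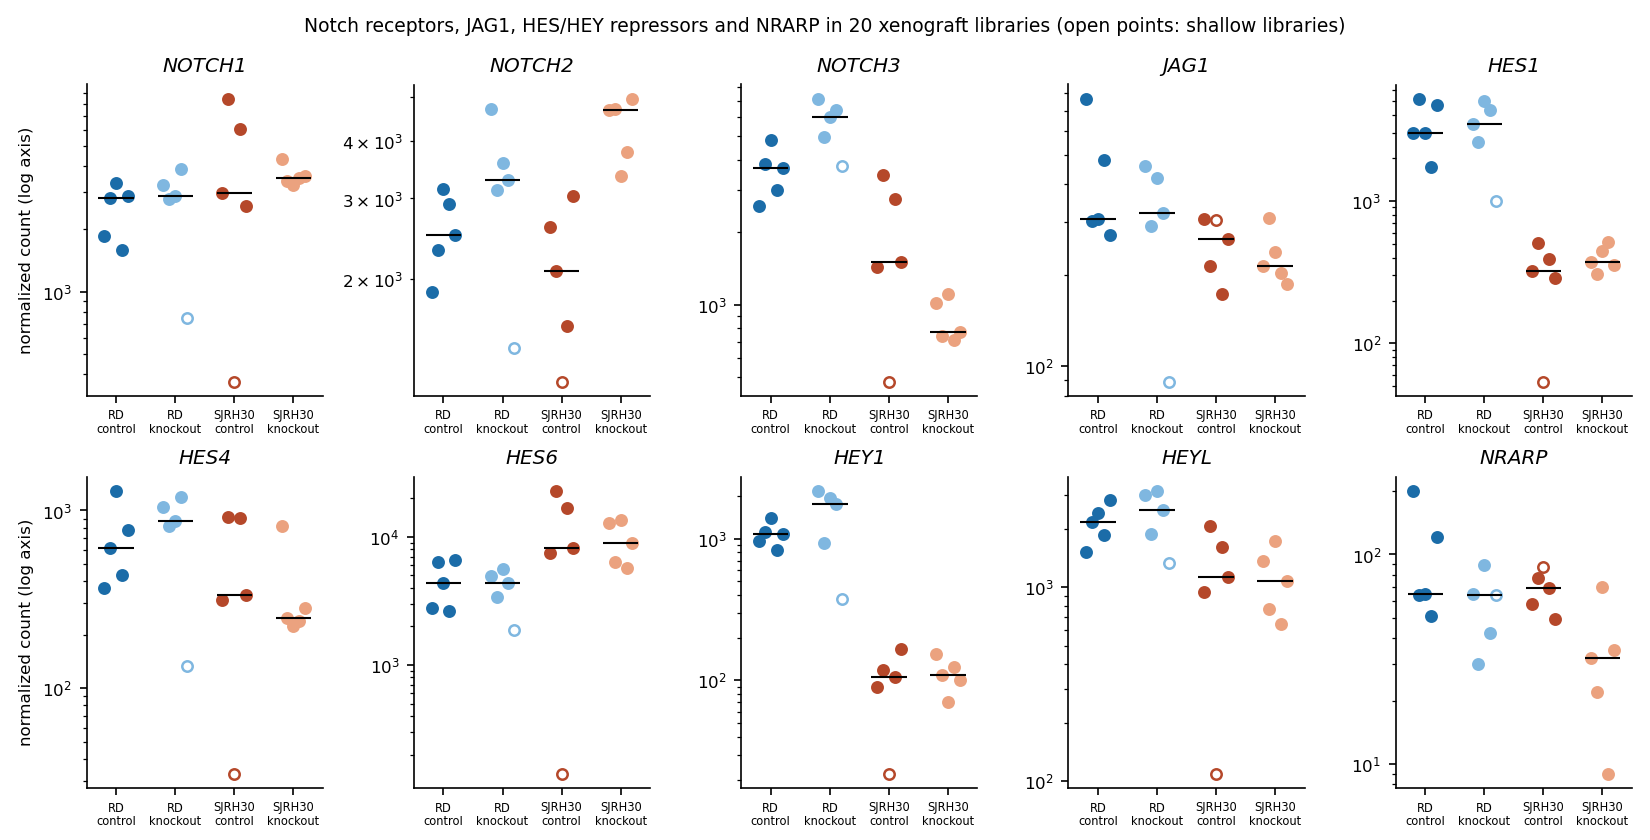
Normalized counts (log axis) of the 10 Notch genes in the 5 libraries of each group, 1 point a library, with open points for the shallow libraries and a line at the median of all 5. HES1 and HEY1 sit far lower in SJRH30 than in RD, and NOTCH3 is lowest in SJRH30 knockouts, at 715 to 1102, apart from the shallow control at 479.

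The comparison asked whether labelled knockout of TLE3, from the corepressor family that HES proteins use, goes with a change in the pathway's transcripts. With all libraries, limma called 0 of the 10 members in RD, where 0.142% of all genes were called, and 0 of 10 in SJRH30, where 0.00999% were. At an unadjusted p below 0.05 there was 1 member in RD (NOTCH3) and there were 2 in SJRH30 (NOTCH2 and NRARP). Over all genes tested, 3614 of 42917 in RD and 3439 of 40028 in SJRH30 had such a p. In the deep libraries limma again called 0 members in RD, with 0.332% of all genes called, and 0 in SJRH30, with 0.486% called. There 3 members in each line had an unadjusted p below 0.05, beside 4128 of 42763 genes in RD and 7773 of 39720 in SJRH30. RD and SJRH30 values of NOTCH3 nevertheless moved apart, and this difference was called in the deep libraries.

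NOTCH3, a receptor best known from mural cells and also expressed in muscle progenitors, is encoded at chr19:15159038-15200981 (GRCh38, minus strand, GENCODE 29). In RD its normalized counts were 2562, 3824, 4807, 2983 and 3697 in controls and 7159, 4940, 5989, 6453 and 3770 in knockouts. All 4 deep RD knockouts lay above every RD control, and the shallow one lay within the control range. In SJRH30 the counts were 1436, 3441, 479, 2750 and 1497 in controls and 1014, 739, 1102, 715 and 768 in knockouts. Here all 4 deep controls lay above every knockout, and the shallow control lay below all of them. The deep means were 3575 ± 862 (SD, n = 5) against 6135 ± 931 (n = 4) in RD and 2281 ± 982 (n = 4) against 868 ± 178 (n = 5) in SJRH30.

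Within a line NOTCH3 did not pass the test. The log2 fold change, knockout minus control, in RD was 0.66 ± 0.24 SE with all libraries (limma adjusted p = 0.468) and 0.80 ± 0.22 in the deep ones (0.185). In SJRH30 it was -0.88 ± 0.47 with all libraries (limma adjusted p = 0.640) and -1.31 ± 0.31 in the deep ones (0.0661). Leaving out either SJRH30 control 5 or SJRH30 knockout 3 from the deep libraries brought it under the threshold (-1.48, adjusted p = 0.0402, and -1.41, 0.0269). In the authors' deposited table the SJRH30 log2 fold change of NOTCH3 was -1.396 with an adjusted p of 0.000315, and the RD value was 0.748 with 0.322.

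The difference of the NOTCH3 knockout effects, SJRH30 minus RD, was tested in 1 fit over both lines. With all libraries it was -1.55 ± 0.55 (limma adjusted p = 0.700), and 0 of the 10 members were called, beside 0.00903% of all genes. An unadjusted p below 0.05 was reached by 1 member, beside 2662 of 44294 genes. In the 18 deep libraries the difference for NOTCH3 was -2.11 ± 0.38 (adjusted p = 0.0173), and NOTCH3 was the 1 member called beside 0.197% of all genes. When each further library was left out in turn, the call was made in 16 of 18 fits, with values from -2.30 to -1.88. It was lost without RD knockout 1 (-2.04, adjusted p = 0.0613) and without SJRH30 control 4 (-1.99, 0.0686). Of the 11 pericyte and smooth muscle markers, RGS5 and PDGFRB in RD and MCAM in SJRH30 separated the deep groups in the same direction as NOTCH3, with the ranges given above, while the summed level overlapped (3506 to 6793 in SJRH30 controls, 2144 to 7273 in SJRH30 knockouts). None of these markers did so in both lines. Deep means of RGS5 went from 367 in SJRH30 controls up to 630 in knockouts, and those of MCAM from 366 in RD controls down to 322, both against NOTCH3. PDGFRB overlapped in SJRH30 (57 to 292 and 64 to 239). Their part in the NOTCH3 values was not tested.

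NOTCH2, a receptor kept in quiescent muscle stem cells, lies at chr1:119911553-120069626 (minus strand). Its normalized counts in SJRH30 were 2598, 2089, 1198, 1580 and 3037 in controls and 4674, 4706, 3364, 3778 and 4949 in knockouts, so the groups did not overlap. The log2 fold change was 1.09 ± 0.34 (limma adjusted p = 0.448) with all libraries and 0.91 ± 0.28 (0.121) in the deep ones, and neither passed. The authors' deposited table gave NOTCH2 a log2 fold change of 0.867 in SJRH30 with an adjusted p of 0.0251. In RD the counts were 1880, 2322, 3140, 2914 and 2495 in controls and 4687, 3126, 3581, 3296 and 1416 in knockouts, with a log2 fold change of 0.26 ± 0.29 (adjusted p = 0.817) with all libraries and 0.53 ± 0.21 (0.414) in the deep ones. The near-copy NOTCH2NLA, which shares sequence with NOTCH2, stood at 534 to 1074 in SJRH30 controls and at 1564 to 3312 in knockouts, and reads of these genes can be split uncertainly between them. NOTCH2 and NOTCH3 thus had deep values of opposite sign in SJRH30 and of the same sign in RD.

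NOTCH1 (chr9:136494433-136545786, minus strand) gave no such separation. It ranged over 1587 to 3339 in RD controls, 750 to 3885 in RD knockouts, 370 to 8442 in SJRH30 controls and 3235 to 4319 in SJRH30 knockouts. Its log2 fold change with all libraries was -0.02 ± 0.39 in RD (adjusted p = 0.994) and 0.41 ± 0.67 in SJRH30 (0.936). Both signs turned in the deep libraries, to 0.40 ± 0.24 (0.629) and -0.31 ± 0.34 (0.632). JAG1, the ligand (chr20:10637684-10673999, minus strand), had 272 to 768 in RD controls, 89 to 458 in RD knockouts, 173 to 307 in SJRH30 controls and 187 to 309 in SJRH30 knockouts. The JAG1 log2 fold change with all libraries was -0.51 ± 0.42 in RD (0.750) and -0.12 ± 0.32 in SJRH30 (0.965), and its deep 95% intervals were -0.74 to 0.54 and -0.68 to 0.60. JAG1 shares exons with a transcript on the opposite strand, AL050403.2 (43 to 719 normalized counts), and counts without strand cannot tell them apart.

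The repressors gave no call for knockout against control in either line. HES1, which represses differentiation genes in progenitor cells, had log2 differences with all libraries of -0.20 ± 0.41 for RD (adjusted p = 0.910 by limma) and, for SJRH30, 0.64 ± 0.53 (0.809). In the deep ones it was 0.19 ± 0.30 (0.884), of the other sign, and 0.09 ± 0.29 (0.896). The deep 95% intervals were -0.46 to 0.84 and -0.52 to 0.70. HEY1, a Notch target of blood vessels and muscle, had 959, 1114, 1395, 833 and 1081 in RD controls and 2166, 927, 1915, 1757 and 375 in RD knockouts. In 3 RD knockouts it lay above every control, and the log2 fold change was 0.18 ± 0.40 (adjusted p = 0.913) with all libraries and 0.60 ± 0.25 (0.448) in the deep ones. In SJRH30 HEY1 stayed between 22 and 167 in controls and between 71 and 153 in knockouts, with a log2 fold change of 0.36 ± 0.52 (0.919) with all libraries and of the other sign, -0.12 ± 0.35 (0.885), in the deep ones.

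HES4, a repressor that the mouse genome lacks, had 365, 616, 1289, 436 and 772 in RD controls and 1043, 821, 877, 1195 and 133 in RD knockouts. In SJRH30 it had 314, 917, 33, 909 and 335 in controls and 820, 248, 223, 240 and 282 in knockouts, so 4 knockouts lay below every deep control and the first lay within their range. With all libraries the log2 fold change of HES4 was 0.06 ± 0.52 in RD (adjusted p = 0.981) and 0.01 ± 0.78 in SJRH30 (1.00). In the deep ones it was 0.63 ± 0.31 in RD (adjusted p = 0.542) and -0.79 ± 0.42 in SJRH30 (0.309). The difference of the effects, SJRH30 minus RD, was -0.05 ± 1.01 (adjusted p = 0.996) with all libraries and -1.42 ± 0.57 (0.400) in the deep ones, and did not pass.

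HES6, which in mouse counteracts HES1 and favours differentiation, and HEYL, a HEY family repressor, had deep log2 fold changes of 0.09 ± 0.29 and 0.29 ± 0.23 in RD and of -0.47 ± 0.38 and -0.39 ± 0.33 in SJRH30, with adjusted p from 0.513 to 0.950. With all libraries HES6 had -0.16 ± 0.34 in RD and 0.82 ± 1.10 in SJRH30, and HEYL 0.10 ± 0.27 and 0.34 ± 0.68. The sign thus turned for HES6 in both lines and for HEYL in SJRH30 when the shallow library was left out. NRARP, which limits Notch by binding the active nuclear complex, had 201, 64, 65, 51 and 121 in RD controls and 65, 30, 89, 42 and 64 in RD knockouts. The RD log2 fold change was -0.68 ± 0.44 (adjusted p = 0.679) with all libraries and -0.74 ± 0.44 (0.621) in the deep ones. In SJRH30 NRARP had 58, 77, 87, 69 and 49 in controls and 32, 22, 70, 9 and 35 in knockouts. In SJRH30, 4 of the 5 knockouts lay below every control, with a log2 fold change of -1.24 ± 0.54 (adjusted p = 0.557) with all libraries and -1.14 ± 0.51 (0.227) in the deep ones.

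**Figure D2:**
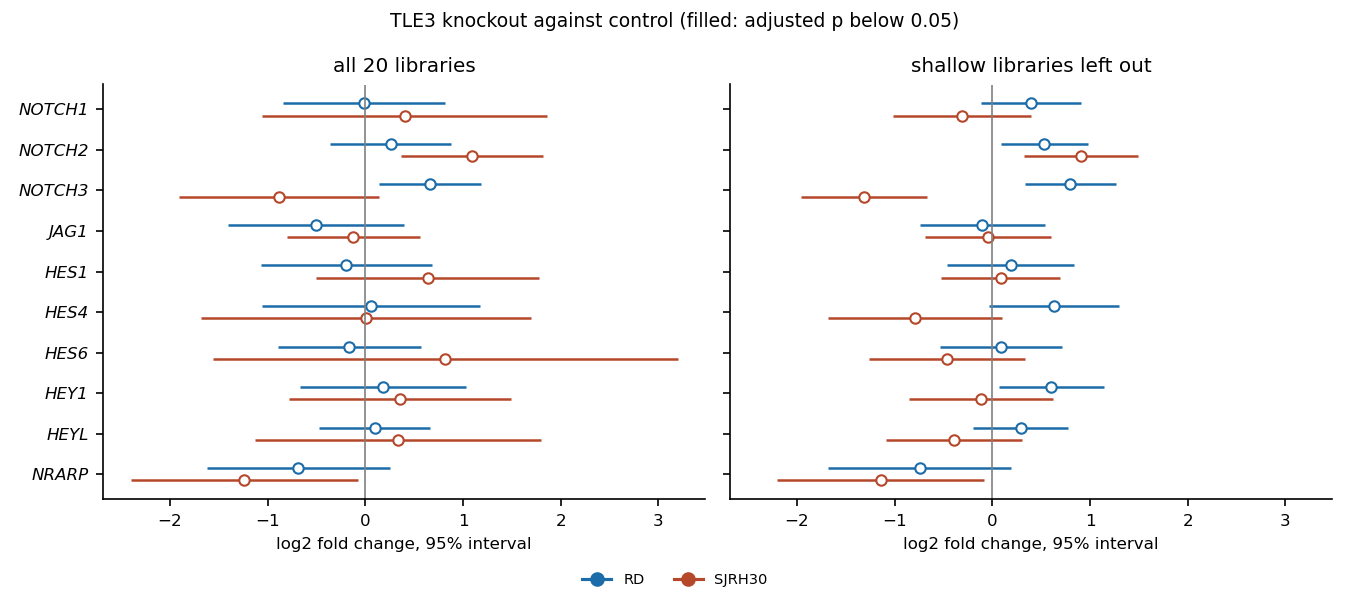
Log2 fold change, knockout minus control, of each member with its 95% interval, in RD (blue) and SJRH30 (red), for all libraries (left) and the deep ones (right). No point is filled because none passed adjusted p below 0.05. NOTCH3 is the member whose intervals lie on opposite sides of 0 in the deep libraries, at 0.80 in RD and -1.31 in SJRH30.

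The lines were compared within the controls and again within the knockouts, which share no library, in 1 fit over all 4 groups. With all libraries 3 of 10 members were called in the controls, beside 18.7% of all genes, and 3 in the knockouts, beside 16.9%. In both cases they were NOTCH3, HES1 and HEY1, all lower in SJRH30. In the deep libraries 6 were called in the controls (40.4% of all genes) and 6 in the knockouts (26.8%), so a large share of all genes differed between the lines as well.

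HES1 and HEY1 differed most. HES1 (chr3:194136145-194138732, plus strand) had 2985, 5224, 3010, 1744 and 4690 normalized counts in RD controls and 322, 509, 54, 393 and 289 in SJRH30 controls. In knockouts it had 3467, 2586, 5029, 4361 and 992 in RD and 375, 305, 443, 515 and 357 in SJRH30. Every RD library, the shallow one included, lay above every SJRH30 library. The log2 fold change of HES1, SJRH30 minus RD, was -3.70 ± 0.50 in controls (limma adjusted p = 1.03e-05) and -2.87 ± 0.50 in knockouts (2.17e-04). In the deep libraries it was -3.15 ± 0.29 (5.86e-09) and -3.25 ± 0.29 (3.72e-09).

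HEY1 had 90, 119, 22, 106 and 167 in SJRH30 controls and 153, 110, 71, 124 and 100 in SJRH30 knockouts, against the RD counts of 375 to 2166 given above. No SJRH30 library reached the lowest RD library. Its log2 fold change was -3.64 ± 0.48 in controls (adjusted p = 7.05e-06) and -3.46 ± 0.48 in knockouts (1.22e-05), and in the deep libraries -3.16 ± 0.28 (3.35e-09) and -3.88 ± 0.28 (1.09e-10). HES1 and HEY1 were called in both comparisons in every fit that left out 1 of the 18 deep libraries. Some vascular markers were also lower in deep SJRH30 controls than in RD controls. Endothelial sums were 1036 to 1781 against 2308 to 4287, PECAM1 122 to 178 against 536 to 959 and RGS5 278 to 447 against 1091 to 1515. The endothelial markers KDR, ESAM and ROBO4 had higher means in deep SJRH30 controls (158, 136 and 52.5 against 138, 101 and 45.4). Means of the remaining endothelial markers were lower, some by little (TIE1 165 against 172, CDH5 72.5 against 85.2). Pericyte and smooth muscle sums overlapped (3506 to 6793 against 4170 to 6908), and some markers of that list, such as ACTA2 and TAGLN, had higher means (1704 and 1204 against 802 and 376). In the deep knockouts endothelial sums (1289 to 3226 against 2484 to 2869) and PECAM1 (475 to 640 against 549 to 1033) overlapped. RGS5 did not (437 to 811 against 2031 to 4655). The part of these markers in the HES1 and HEY1 values was not tested.

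The receptors differed less. NOTCH3 was lower in SJRH30 by a log2 fold change of -1.15 ± 0.39 in controls (adjusted p = 0.0413) and -2.69 ± 0.39 in knockouts (2.17e-05), and in the deep libraries of -0.72 ± 0.27 (0.0342) and -2.83 ± 0.27 (9.85e-09). The control difference was fragile. It was called in 11 of the 20 fits that left out 1 library, with values from -1.43 to -0.72, and was lost without RD control 2, 3, 4 or 5, SJRH30 control 1, 3 or 5, or SJRH30 knockout 2 or 5. From the deep libraries it was called in 13 of 18 such fits, and was lost without RD control 2, 3 or 5 or SJRH30 control 1 or 5. NOTCH3 in the knockouts was called in all 18.

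NOTCH1 was higher in the deep SJRH30 controls by 0.89 ± 0.30 (adjusted p = 0.0199), but by 0.17 ± 0.58 (0.859) with all libraries. That call was lost without RD control 1 or 4 or SJRH30 control 2 or 4, where the value was as low as 0.58, and its sign turned with quantile normalization of all 20 libraries (-0.27). In the knockouts the NOTCH1 value was 0.60 ± 0.58 (0.529) with all libraries and 0.18 ± 0.30 (0.704) in the deep ones. NOTCH2 did not pass in either comparison, with values of -0.33 ± 0.32 in controls and 0.50 ± 0.32 in knockouts for all libraries (adjusted p = 0.480 and 0.304) and deep values of -0.15 ± 0.23 in controls and 0.23 ± 0.23 in knockouts (adjusted p = 0.628 and 0.514). JAG1 was lower in the deep SJRH30 controls by -0.74 ± 0.29 (0.0456), a call made in 9 of 18 fits that left out a further library and lost without RD control 1 or 4, RD knockout 3 or 4, SJRH30 control 2, 4 or 5, or SJRH30 knockout 1 or 5, and it did not pass in the deep knockouts (-0.69 ± 0.29, 0.0862). With all libraries JAG1 did not pass in controls (-0.67 ± 0.39, 0.235) or knockouts (-0.28 ± 0.39, 0.669).

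HES6 went the other way. It lies at chr2:238238267-238240662 (minus strand), and its counts were 2773, 6400, 4378, 2640 and 6615 in RD controls and 7504, 22753, 142, 16628 and 8101 in SJRH30 controls. All 4 deep SJRH30 controls lay above every RD control, and the shallow one lay far below. In knockouts HES6 had 4921, 3398, 5594, 4375 and 1875 in RD and 12798, 6404, 13381, 5751 and 8955 in SJRH30, without overlap. In the deep libraries HES6 was higher in SJRH30 by 1.54 ± 0.36 in controls (adjusted p = 0.00136) and by 0.99 ± 0.36 in knockouts (0.0419), and with all libraries by 0.26 ± 0.86 (0.860) and 1.24 ± 0.86 (0.354), the former turning to -0.36 with quantile normalization. The knockout call was lost without RD knockout 1, 2 or 4 or SJRH30 knockout 1, 3 or 5. A transcript on the opposite strand, AC096574.4, spans HES6 and had counts of 436 to 23639 that followed it (436 against 142 in SJRH30 control 3). In GENCODE 29 the overlap is with an intron of that transcript, the authors' annotation was not given in the sources used here, and whether the pair shared reads was not tested.

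HES4 and HEYL were lower in the deep SJRH30 knockouts, HES4 by -1.63 ± 0.40 (adjusted p = 0.00341) and HEYL by -1.30 ± 0.29 (0.0014), and both calls were made in all 18 fits that left out a further library. In the deep controls HES4 differed by -0.21 ± 0.40 (0.708) and HEYL by -0.62 ± 0.29 (0.0911), and neither passed. With all libraries neither passed, with HES4 at -1.01 ± 0.71 in controls and -1.05 ± 0.71 in knockouts and HEYL at -1.35 ± 0.54 (0.0837) and -1.11 ± 0.54 (0.168), though HEYL passed between controls without SJRH30 control 2 (-1.68, 0.0390). HEYL counts in controls were 1523, 2171, 2429, 1862 and 2835 in RD and 949, 2068, 109, 1607 and 1132 in SJRH30, and in knockouts 3002, 1889, 3143, 2509 and 1328 in RD and 1359, 768, 1741, 647 and 1075 in SJRH30. Every deep RD knockout lay above every SJRH30 knockout for HEYL, while the control ranges overlapped. NRARP did not pass between the lines, at -0.39 ± 0.49 (0.608) in controls with all libraries and -0.49 ± 0.49 (0.447) in the deep ones.

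**Figure D3:**
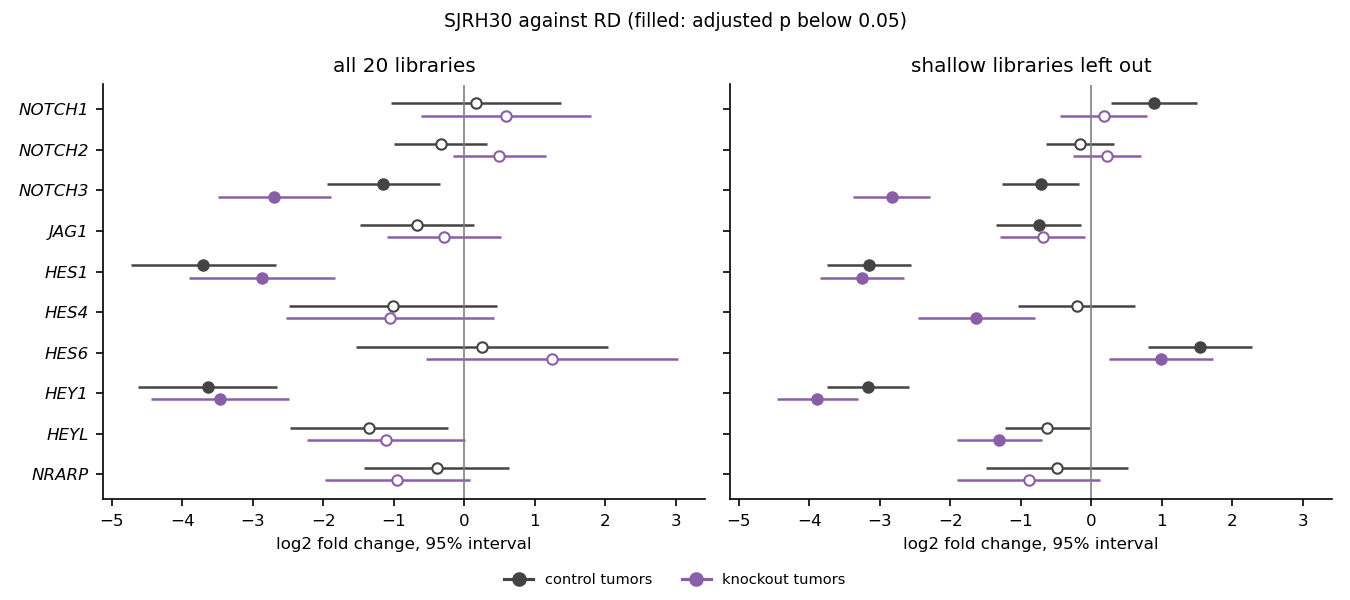
Log2 fold change, SJRH30 minus RD, of each member with its 95% interval, in control tumors (grey) and knockout tumors (purple), for all libraries (left) and the deep ones (right), with filled points at adjusted p below 0.05. HES1 and HEY1 lie between -3.88 and -2.87 in every panel and group, and HES6 is above 0 and filled in the deep fits.

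Within groups several members moved together from tumor to tumor. Among the SJRH30 controls, numbers 2 and 4 held the highest values of NOTCH1 (8442 and 6067), NOTCH3 (3441 and 2750), HES6 (22753 and 16628), HEYL (2068 and 1607) and HES4 (917 and 909). The same pair had the highest muscle gene sums of any library, 89114 and 70685, and the highest totals of normalized counts among SJRH30 controls, 60.7 M and 46.3 M; whether these share a source with the Notch values was not tested. NOTCH2 did not follow, with 2089 and 1580 there. RD control 1 held the highest JAG1 (768) and NRARP (201) of all libraries, and it also had the highest endothelial sum, 4287, and the highest pericyte sum among RD controls, 6908.

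Across the 18 deep libraries, after each group's mean was subtracted, Pearson's r of log2 values was 0.91 for HES6 with HEYL, 0.86 for NOTCH1 with NOTCH3, 0.86 for HES6 with NOTCH3 and 0.83 for HES4 with NOTCH1. JAG1 ran against most of them, with -0.60 for NOTCH1 and -0.58 for HES4, and HES1 with HEY1 reached only 0.28. These values share library depth and scaling and are descriptions. Among 18447 genes with a mean of at least 100, the genes most like each member were CDK11B (0.98) and XYLT2 (0.97) for NOTCH1, RP11-158I13.2 (0.95) and ZNF512 (0.94) for NOTCH2, and RP11-961A15.1 (0.97) and WDR81 (0.96) for NOTCH3. For JAG1 they were ABCC9 (0.80), which is itself on the pericyte list, and HLF (0.78). For the repressors they were RP11-112J3.15 (0.95) and SEPTIN6 (0.93) for HES1, PBXIP1 (0.96) and PNPLA6 (0.95) for HES4, AC096574.4 (1.00) and NEU4 (0.97) for HES6, BIVM-ERCC5 and PTPN21 (both 0.86) for HEY1, and LRWD1 (0.98) and PDRG1 (0.96) for HEYL. NRARP was under the minimum.

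Of 46 other Notch pathway genes, limma called 0 for knockout against control in RD and 0 of the 45 tested in SJRH30 with all libraries, with 3 and 6 at an unadjusted p below 0.05. Their median log2 fold change was -0.02 in RD and 0.28 in SJRH30, beside -0.09 and 0.17 over all genes tested. In the deep libraries the count stayed 0 in RD, with 4 at an unadjusted p below 0.05. In deep SJRH30 libraries 13 of 45 had an unadjusted p below 0.05. Such a p was reached by 4128 of 42763 genes in deep RD and 7773 of 39720 in deep SJRH30 libraries. With all libraries it was reached by 3614 of 42917 in RD and 3439 of 40028 in SJRH30. In deep SJRH30 libraries 1 of the 45 genes was called and fell, beside 0.486% of all genes called. It was DLK2, a non-canonical ligand related to DLK1 (-1.85 ± 0.41, adjusted p = 0.0483). DLK2 normalized counts ranged from 287 to 1001 in the deep SJRH30 controls and from 77 to 203 in knockouts, while the shallow control had 54.

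Between the lines more of the list was called, as was more of the whole table. In controls 8 of 46 were higher and 6 lower in SJRH30 with all libraries, beside 18.7% of all genes called, and 16 and 8 in the deep ones, beside 40.4%. In knockouts 7 were higher and 3 lower, beside 16.9%, and 11 and 5 in the deep ones, beside 26.8%. Among the nuclear partners, the coactivator MAML2 had medians of 8545 in RD controls and 227 in SJRH30 controls (log2 -4.85 ± 0.42, adjusted p = 2.54e-08), and 6831 and 300 in knockouts (-4.45 ± 0.42, 7.85e-08). MAML3 was lower by -3.21 ± 0.44 in controls and -2.92 ± 0.44 in knockouts, while MAML1 had medians of 1313 and 1509 in the controls of RD and SJRH30. RBPJ, the DNA-binding partner, was lower by -1.31 ± 0.32 in controls (adjusted p = 0.00614) and gave no call in knockouts.

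Proteases of receptor activation moved both ways. ADAM10, which makes the ligand-dependent cut, was higher in SJRH30 by 1.80 ± 0.30 in controls (adjusted p = 1.18e-04) and 2.55 ± 0.30 in knockouts (1.31e-06), with medians of 945 in RD and 3421 in SJRH30 controls. ADAM17 was lower in controls by -1.45 ± 0.35 (0.00466). The gamma-secretase subunit APH1B was higher in knockouts (1.84 ± 0.48, adjusted p = 0.00852). Among ligands DLK2 was higher (2.64 ± 0.59, 0.00268) and DLK1 lower (-2.11 ± 0.57, 0.0114) in controls. Of the ubiquitin ligases that act on receptor or ligand turnover, DTX4 was higher in controls (2.33 ± 0.57, 0.0059) and knockouts (2.95 ± 0.57, 7.42e-04), MIB2 was higher in knockouts (2.36 ± 0.58, 0.00603) and DTX1 was lower there (-1.78 ± 0.44, 0.00605). RFNG, a glycosyltransferase that tunes ligand choice, was higher in knockouts (2.16 ± 0.60, 0.0146).

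**Figure D4:**
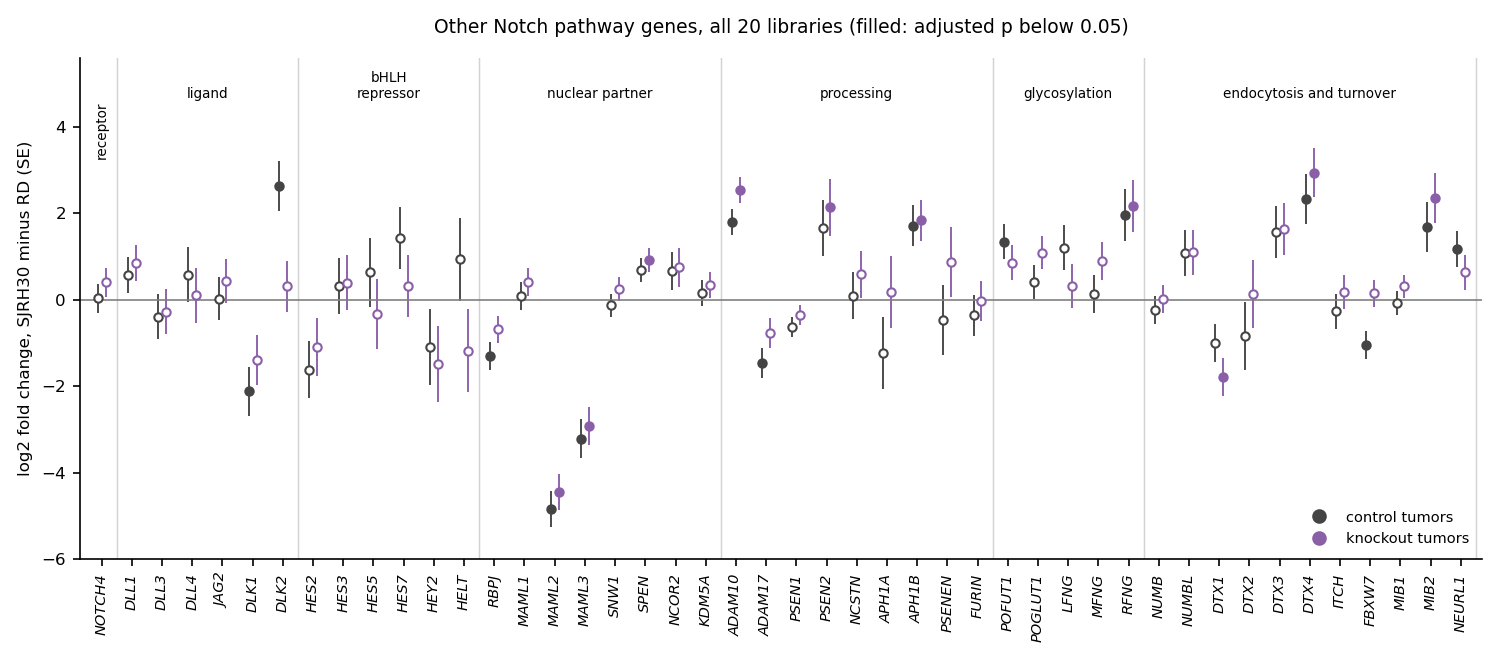
Log2 fold change, SJRH30 minus RD, of 46 other Notch pathway genes grouped by role, in control (grey) and knockout (purple) tumors, all 20 libraries, with bars of 1 standard error and filled points at adjusted p below 0.05. MAML2 and MAML3 lie lowest, at -4.85 and -3.21 in controls, and ADAM10 and DTX4 are filled above 0 in both.

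Of the 6 genes of the TLE family, 1 was higher and 2 were lower in SJRH30 controls, beside 18.7% of all genes called. The deep counts were the same, beside 40.4%, and TLE4, TLE5 and TLE6 gave no call with all libraries. In knockouts 1 was higher and 1 lower with all libraries, beside 16.9%, and 1 and 2 in the deep ones, beside 26.8%. TLE1 had medians of 896 in RD controls and 6820 in SJRH30 controls (log2 2.57 ± 0.40, adjusted p = 6.03e-05). TLE2 (-1.80 ± 0.32, 3.31e-04) and TLE3 (-2.04 ± 0.37, 3.21e-04) were lower in SJRH30 controls. In RD, TLE1 counts were 896, 958, 1400, 851 and 893 in controls and 2860, 1894, 2554, 2489 and 1012 in knockouts. TLE1 rose in the deep RD knockouts (1.30 ± 0.21, limma adjusted p = 0.0169), without overlap with the controls, and was the 1 of 6 TLE genes called for knockout against control in the deep libraries of either line, beside 0.332% of all genes in RD and 0.486% in SJRH30. With all libraries limma called 0 of 6 in each line (0.142% and 0.00999% of all genes), with 3 in RD and 2 in SJRH30 at an unadjusted p below 0.05. Among all genes tested 3614 of 42917 in RD and 3439 of 40028 in SJRH30 reached such a p.

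Of the 11 muscle fate genes, 1 was higher and 2 were lower in SJRH30 controls with all libraries, beside 18.7% of all genes called. PAX7, the satellite cell factor, was lower there by -4.45 ± 0.40 (limma adjusted p = 3.82e-08) and MYOD1, the myogenic master regulator, was higher by 2.42 ± 0.68 (0.0143). With all libraries 0 of these genes were called by limma for knockout against control in either line, beside 0.142% of all genes in RD and 0.00999% in SJRH30. At an unadjusted p below 0.05 there were 2 in RD and 1 in SJRH30, beside 3614 of 42917 and 3439 of 40028 genes tested. In the deep SJRH30 libraries MYMK, the muscle fusion factor, fell by 1.73 on the log2 scale (SE 0.36, limma adjusted p = 0.0383). It was the 1 of 10 tested that was called there, beside 0.486% of all genes.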

How the data were processed

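Per the submitters' processing notes, reads were handled with FastQC, fastp 0.20.1, STAR 2.7 on GRCh38 p7, featureCounts and edgeR, with no settings given. Per the labels' protocols, poly(A) RNA was extracted with either of a pair of kits, not recorded per tumor, and no strand marking was stated. The deposited values are a score: normalized counts per gene, scaled by the authors and rounded to whole numbers, so no count model was run. The authors' deposited comparison tables hold a fold ratio, a log2 fold change, a p-value and an adjusted p-value for each gene, printed only where named.

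Tests used limma 3.58.1 (R 4.3.3) on log2(value + 1), a scale that understates changes of low genes, with its variance trended on the mean. Genes needed 5 or more libraries at 1 or above. Tests were 2-sided, Benjamini-Hochberg adjustment ran over all genes, and calls were made at adjusted p below 0.05. Each line's knockout was tested in its own 10 libraries, and the others in all 20 with 4 group means. Scripts were tested on simulated data. Members and lists, and the rule naming all members, at most 8 called pathway genes a comparison and the 2 most alike genes, were chosen with earlier results of these data known. Sequences and motifs came from RefSeq (GRCh38.p14), positions and exonic lengths from GENCODE 29.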

Additional observations from a re-analysis of the deposited data

Results flagged for a closer look

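HES4 in SJRH30 knockout 1 stood at 820 normalized counts, far above the other 4 knockouts at 223 to 282. The gap to the nearest library was 0.901 of the group's range, above the limit of 0.71 for 5 libraries. It was the 1 library found among 40 groups of a gene, and chance alone flags about 1 in 20 groups.

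NOTCH3 differed between the lines in its knockout effect in the deep libraries, where the difference of effects, SJRH30 minus RD, was -2.11 on the log2 scale (limma adjusted p = 0.0173). With all libraries it was -1.55 (0.700).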

How the results depend on the processing

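No log2 fold change that turned sign under an alternative was called there or with all libraries. With limma array weights, knockout minus control became 0.20 for NOTCH1 and 0.13 for JAG1 in RD, and -0.35 for HES4, -0.033 for HES6, -0.035 for HEY1 and -0.11 for HEYL in SJRH30; the difference of effects became -0.15 for NOTCH1, -0.27 for JAG1, -0.66 for HEY1 and -0.39 for HEYL. A pseudocount of 8 gave HES4 -0.025 in SJRH30. Without both shallow libraries the difference of effects was -0.71 for NOTCH1, -0.10 for HES1, -0.55 for HES6, -0.72 for HEY1 and -0.68 for HEYL. Quantile normalization, which moved the median of all genes from -0.45 to -0.03 between controls, from 0.17 to 0.01 for the SJRH30 knockout and from 0.28 to 0.01 for the difference of effects, gave 0.063 for the difference of effects of HES4, and -0.27 for NOTCH1, -0.36 for HES6 and 0.034 for NRARP between controls. The cause was not tested.

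Leaving out 1 library, knockout minus control in RD ranged from -0.19 to 0.40 for NOTCH1, -0.42 to 0.19 for HES1, -0.16 to 0.63 for HES4, -0.33 to 0.088 for HES6, -0.028 to 0.60 for HEY1 and -0.021 to 0.29 for HEYL. In SJRH30 it ranged from -0.31 to 0.82 for NOTCH1, -0.79 to 0.40 for HES4, -0.47 to 1.36 for HES6, -0.12 to 0.60 for HEY1 and -0.39 to 0.67 for HEYL. The difference of effects ranged from -0.29 to 0.83 for NOTCH1, -0.021 to 0.57 for JAG1, -0.85 to 0.34 for HES4, -0.30 to 1.53 for HES6, -0.30 to 0.42 for HEY1 and -0.49 to 0.57 for HEYL. Between controls it ranged from -0.24 to 0.89 for NOTCH1 and -0.29 to 1.54 for HES6.

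Counts of called members moved as follows. For the difference of effects it was 1 (NOTCH3) with array weights and without both shallow libraries, and 0 to 1 when 1 library was left out, from all libraries or from the deep ones. In deep SJRH30 libraries the knockout count was 0 to 1 when 1 more was left out. Between controls it was 6 without both shallow libraries, 4 with quantile normalization or array weights (HEYL gained, -1.76 and -0.96) and 2 to 4 without 1 library, and from the deep libraries 4 to 6. Between knockouts it was 7 with array weights, 6 without both shallow libraries, and 3 to 5 without 1 library. The calls over all genes moved as well. Of 44294 genes, array weights called 16620 between controls and 15722 between knockouts, against 8289 and 7504 without weights. For the difference of effects they called 146, against 4. Quantile normalization called 7747 between controls. Without 1 library the calls ran from 6173 to 15533 between controls and from 5628 to 12600 between knockouts. Replicate numbers did not pair the tumors (same-number correlations from -0.63 to -0.31 in RD, from -0.42 to 0.26 in SJRH30 and from -0.19 to 0.12 between the control groups). Between the knockout groups they ran from -0.29 to 0.39, with 3 of 5 over 0.1 and 3 of 5 best matches on the own number, a hint from the data and not the design. With the replicate number as a block 0 members were called in each knockout comparison and for their difference, 2 between controls (NOTCH3 lost, -1.15, adjusted p = 0.072) and 3 between knockouts. That block gave 6813 calls over all genes between controls and 6247 between knockouts. Fits without a deep library were chosen after seeing the data. Depth limits HES1, HES4, HEY1 and NRARP in SJRH30 control 3, where 1 read is worth 10.9 normalized counts.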
